A study of Homo sapiens with 2 samples.

Results

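The 14-3-3 family and a pair of other genes linked to arrest of the cell cycle in G2 were examined in H1299 cells with and without p53. The members were 9 genes, namely SFN, the 6 YWHA genes YWHAB, YWHAE, YWHAG, YWHAH, YWHAQ and YWHAZ, and the pair RPRM and GTSE1. They were found by gene symbol in the platform annotation, and all 9 were among the 18417 genes with a value. H1299 is an established human line of non-small cell lung cancer without p53. The p53 group was H1299 cells given p53, and the other group was the H1299 negative control, with 1 array of total RNA each. The sources used here do not say how p53 was introduced, for how long, or what the negative control received. There are no replicates, so every difference describes these 2 arrays and carries no p-value or replicate error. A difference is the log2 intensity in the p53 array minus that in the negative control array, and higher or lower, as a call, means a difference of at least 2-fold, which is a size threshold rather than a test.

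The 14-3-3 proteins are dimeric adaptors that bind partner proteins at phosphorylated serines and threonines and change where those partners reside or how active they are. In the G2 checkpoint they hold the phosphatase CDC25C in the cytoplasm, away from the cyclin B and CDK1 complex that it activates. SFN encodes 14-3-3 sigma, the epithelial form known as stratifin and a known target of p53, whereas the YWHA genes encode the beta, epsilon, gamma, eta, theta and zeta forms, which most tissues express. RPRM encodes reprimo, a p53-induced protein that arrests cells in G2 when overexpressed. GTSE1 encodes a microtubule-associated protein of G2 and S phase cells that binds p53 and moves it out of the nucleus. It thus acts against p53.

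Within the 14-3-3 family SFN and YWHAH carried the divergence, and GTSE1 differed in the direction opposite to that of RPRM. The promoter windows of SFN, YWHAH and GTSE1 are therefore shown. Each is the 250 bases before the annotated start, read 5′ to 3′ on the strand of the gene, from RefSeq on GRCh38.p14, and capitals mark every match to a motif that was searched.

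SFN, chr1:26862899-26863148, plus strand: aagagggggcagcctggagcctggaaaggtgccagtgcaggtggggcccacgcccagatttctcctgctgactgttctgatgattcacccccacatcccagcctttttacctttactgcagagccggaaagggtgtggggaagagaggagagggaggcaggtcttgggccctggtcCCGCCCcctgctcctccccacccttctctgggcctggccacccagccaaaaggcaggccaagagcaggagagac

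YWHAH, chr22:31944285-31944534, plus strand: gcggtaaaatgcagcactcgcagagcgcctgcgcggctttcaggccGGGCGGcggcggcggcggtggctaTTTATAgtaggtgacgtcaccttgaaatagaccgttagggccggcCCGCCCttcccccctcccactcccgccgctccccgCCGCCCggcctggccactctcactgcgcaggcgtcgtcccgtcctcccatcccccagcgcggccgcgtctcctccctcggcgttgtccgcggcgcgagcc

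GTSE1, chr22:46296620-46296869, plus strand: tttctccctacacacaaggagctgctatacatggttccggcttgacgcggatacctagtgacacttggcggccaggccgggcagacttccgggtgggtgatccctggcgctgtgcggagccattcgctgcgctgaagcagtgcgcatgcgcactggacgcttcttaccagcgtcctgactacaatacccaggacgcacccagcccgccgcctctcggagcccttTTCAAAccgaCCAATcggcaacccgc

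The search covered both strands for the cell cycle element CHR (TTTGAA), its variant TTCGAA, the CCAAT box (CCAAT), the GC box (GGGCGG), the TATA box (TATAAA) and the p53 half-site. No 2 matches overlapped in the windows shown. The GTSE1 window held 1 CHR match on the reverse strand, 26 to 21 bases before the start, and 1 CCAAT match on the forward strand, 16 to 12 bases before it, with 4 bases between them. A CHR match occurred in 13.3% of the 35116 windows of this length, a CCAAT match in 32% and both in 4.69%. GTSE1 was the 1 member with a CHR match among the 8 whose windows were searched. The SFN window held 1 GC box, a motif found in 42.6% of windows, and the YWHAH window held 3 GC boxes and 1 reverse-strand TATA match, a motif found in 10.7% of windows. The p53 half-site, present in 5.57% of all windows, matched none of the 8 member windows, and the RPRM window held no match to any of the motifs. These matches describe letters in these windows only, and a p53 half-site further upstream or with a mismatch would have been missed.

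The median log2 intensity of all probe sets was 7.38 with p53 and 7.38 in the negative control, and 11436 genes reached 7.38 in at least 1 array and are called above the filter here. All 9 members passed, each of them in both arrays. As a check of the labels, CDKN1A, which encodes the CDK inhibitor p21, had a difference of 3.49, and MDM2, the ubiquitin ligase of p53, one of 2.71. Of 4 mesenchymal markers, all above the filter, none differed by 2-fold: VIM had a difference of -0.15, CDH2 of -0.08, ZEB1 of -0.89 and FN1 of 0.22. The simple epithelial keratin KRT8 was at 12.84 with p53 and 12.52 in the negative control. The adherens junction gene CDH1, at 6.10 in both arrays, and the epithelial surface gene EPCAM, at 5.72 in both, were below the filter. Of 12 measured haematopoietic, fibroblast and endothelial markers, 2 passed the filter and 11 had identical values in the 2 arrays. Identical values occurred in 35.3% of all 18417 genes for a reason that is not known here, so they do not show a measured lack of change.

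With p53, SFN and RPRM passed the 2-fold threshold upwards, YWHAH and GTSE1 passed it downwards, and the remaining 5 YWHA genes did not reach it. That is 2 of 9 members higher, against 8.21% of all genes above the filter, and 2 of 9 lower, against 5.79%. Within the 14-3-3 family the count was 1 higher, 1 lower and 5 neither. With so few members these counts describe the genes named and not the family as a class.

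SFN had a log2 intensity of 10.09 in the p53 array, against 7.89 in the negative control array. The p53 array was the brighter one by 2.20 on the log2 scale, a 4.59-fold higher level. On the linear scale these are intensities of 1091 with p53 and 238 in the negative control. Of the 11436 genes above the filter, 188 had a more positive difference than SFN, which is 1.64% of them. The control value lay 0.51 above the filter level, so the fold rests on a control signal near the median of the array.

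None of the YWHA genes was 2-fold higher with p53. YWHAB, the beta form, stood at 11.99 with p53 and 12.24 in the negative control, a difference of -0.25. YWHAE, the epsilon form, stood at 13.17 with p53 and 13.35 in the negative control, a difference of -0.18. A second probe set annotated to YWHAE read 12.71 with p53 and 12.90 in the negative control, and its difference was also -0.18. Whether it reads YWHAE itself or a pseudogene of YWHAE was not tested, so it is not taken as a repeat reading. YWHAB and YWHAE were both slightly dimmer with p53. Probe sets on the same arrays hold no variation between cultures. YWHAG, the gamma form, stood at 10.93 with p53 and 10.96 in the negative control, a difference of -0.03, so that its levels were nearly equal. YWHAQ, the theta form, stood at 13.01 with p53 and 13.21 in the negative control, a difference of -0.21. YWHAZ, the zeta form, stood at 12.38 with p53 and 12.65 in the negative control, a difference of -0.27. These 5 genes thus lay between -0.27 and -0.03, which is at most 16.9% below their control level on the linear scale. Differences larger in size than that of YWHAZ were seen in 52.5% of genes above the filter.

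YWHAH, the eta form, was the exception among the YWHA genes. It stood at 10.07 in the p53 array and at 11.41 in the negative control array, a difference of -1.34, or a 2.52-fold lower level with p53. Its linear intensities were 1075 with p53 and 2714 in the negative control. A more negative difference was seen in 291 of the genes above the filter, or 2.54%. YWHAH lay 1.07 below the next lowest YWHA gene on the log2 scale of differences.

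**Figure D1:**
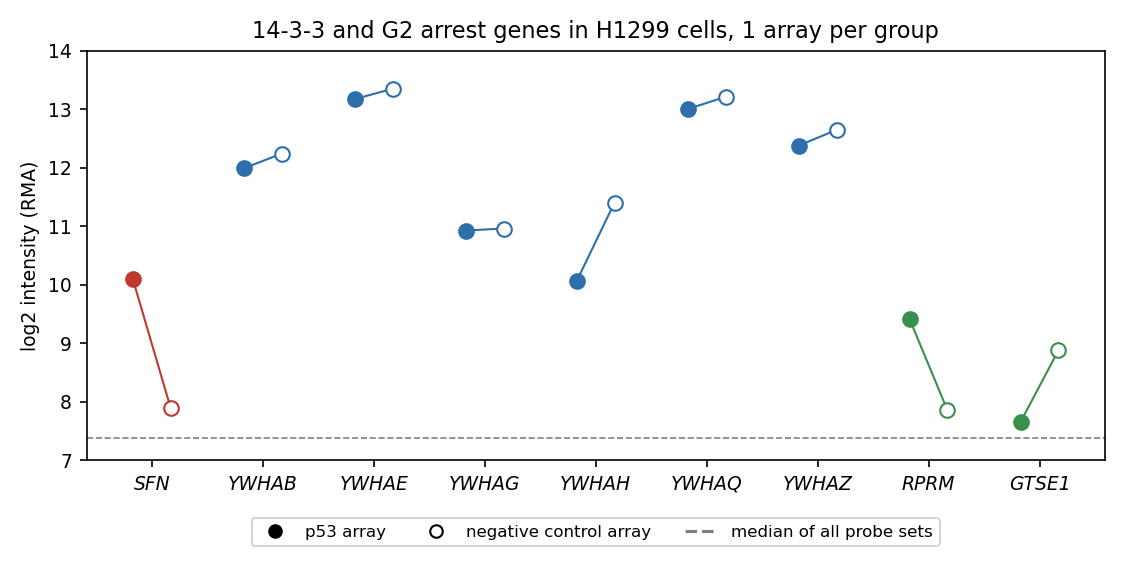
Log2 intensity of the 9 genes in the p53 array (filled) and the negative control array (open), with 1 array per group, so no error bars; the dashed line is the median of all probe sets, 7.38. SFN and RPRM are higher with p53, YWHAH and GTSE1 are lower, and the points of the other YWHA genes lie within 0.27 of each other. Heights of different genes come from different probes and are not to be compared.

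The difference of SFN lay above those of all 6 YWHA paralogues. The 6 YWHA differences ran from -1.34 to -0.03 with a median of -0.23, and SFN lay 2.43 above that median, a 5.37-fold divergence. It lay 2.23 above the highest of them, YWHAG. The 6 differences were all below 0 in the deposited values, but that of YWHAG was 0.09 with the trend of the difference on intensity removed, so its sign is not fixed. The distance between SFN and YWHAH, the 2 ends of the family, was 3.53. No test of this divergence is possible with 1 array per group, since paralogues are not replicates of a condition.

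The number of annotated pseudogenes differs between the YWHA genes. RefSeq lists 10 pseudogenes named after YWHAZ, 10 after YWHAQ, 7 after YWHAE and 2 after YWHAB, so their probe sets may also read such copies, which was not tested. It lists none named after SFN, YWHAG, YWHAH, RPRM or GTSE1. These are the 4 members with differences of at least 2-fold and YWHAG, whose difference was -0.03. Whether pseudogenes bear on any of the differences was not tested. The members were read by 10 probe sets in all, each with a single gene symbol, and no probe set with several symbols included a member. None of the 9 had identical values in the 2 arrays, which occurred in 14.6% of genes above the filter.

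RPRM and GTSE1 differed in opposite directions. RPRM stood at 9.41 in the p53 array and at 7.85 in the negative control array. Its difference of 1.55 is a 2.94-fold higher level with p53, and 475 genes above the filter, or 4.15%, had a more positive one. As for SFN, the control value lay close to the filter level, 0.47 above it. RPRML, the paralogue of RPRM, was listed at an identical 8.52 in the 2 arrays. GTSE1 stood at 7.66 in the p53 array and at 8.88 in the negative control array. Its difference of -1.22 is a 2.33-fold lower level with p53, and 376 genes above the filter, or 3.29%, had a more negative one. Here it is the p53 value that lay near the filter level, 0.28 above it.

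**Figure D2:**
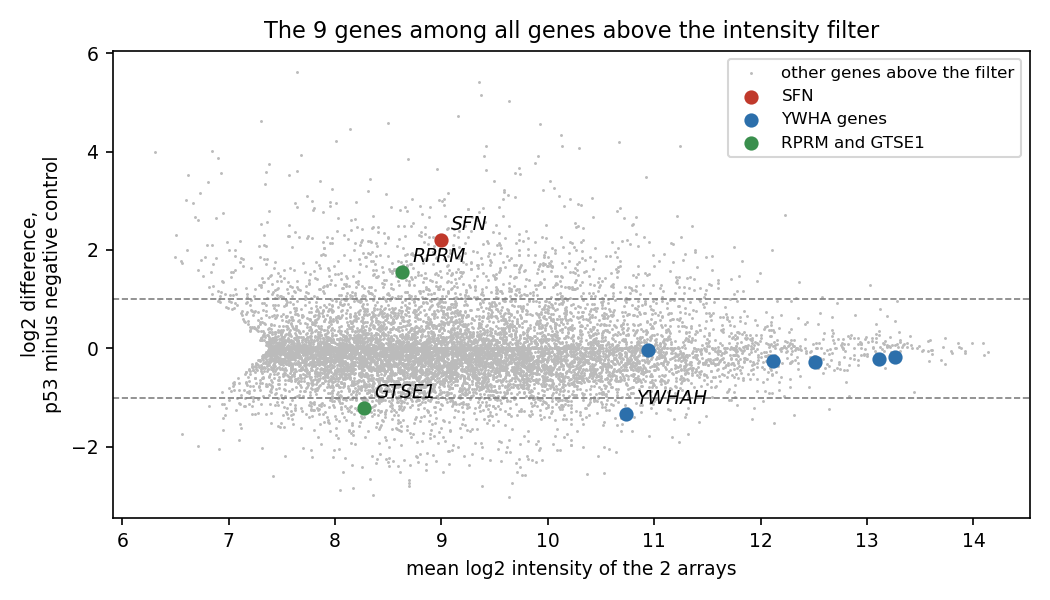
Each gene above the filter is plotted by its mean log2 intensity over the 2 arrays (horizontal axis) and its log2 difference, p53 minus negative control (vertical axis); dashed lines mark 2-fold. SFN and RPRM lie above the upper line, YWHAH and GTSE1 below the lower one, and the remaining 5 YWHA genes lie between -0.27 and -0.03 among the bright genes.

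By the pair of log2 values in the 2 arrays, the genes nearest to SFN were PAG1, a membrane adaptor of Src family kinase signalling, the zinc finger gene ZNF79 and ADAM23, a disintegrin family gene. PAG1 stood at 10.03 with p53 and 7.87 in the negative control, at a Euclidean distance of 0.064 from SFN. ZNF79 stood at 10.03 with p53 and 7.91 in the negative control, at a distance of 0.065. ADAM23 stood at 10.09 with p53 and 7.82 in the negative control, at a distance of 0.076. The genes nearest to GTSE1 were the phospholipid scramblase gene PLSCR1 (distance 0.024, difference -1.22), the formin gene DIAPH3 (distance 0.028, difference -1.25) and TCF19 (distance 0.057, difference -1.18). Likeness over 2 arrays means only that both values are close.

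No gene next to the members on the chromosome reached a 2-fold difference. The 2 nearest protein-coding genes with a value on each side of the 9 members, 36 genes in all, held none that was at least 2-fold higher or lower, against 8.21% and 5.79% of genes above the filter, which 28 of the 36 passed. Their differences ran from -0.99 to 0.83. Several of the neighbours, such as GPATCH3 beside SFN, had identical values in the 2 arrays, which do not show a measured lack of change. Beside SFN on chromosome 1, ZDHHC18 was at 9.67 with p53 and 10.62 in the negative control, a difference of -0.94, and GPN2 was at 9.43 with p53 and 9.10 in the negative control, a difference of 0.32. YWHAH and GTSE1 both lie on chromosome 22, and the neighbours of YWHAH ran from DEPDC5 at -0.05 to PRR14L at 0.03. Among them, SLC5A1 and C22orf42 were below the filter with identical values in the 2 arrays. Neighbours were looked up after the values of the members were known.

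Of the other p53-linked genes of G2 arrest, 3 of the 4 measured passed 2-fold upwards and 1 was neither, beside 8.21% higher among all genes above the filter. Their median difference was 2.55, beside 0.00 over all 18417 genes. The list was chosen with earlier results of these data known, so its count only describes these genes. CDKN1A, already used as a check of the labels, had a difference of 3.49. The polo-like kinase gene PLK3 stood at 11.19 with p53 and 7.98 in the negative control, a difference of 3.21, and its relative PLK2 stood at 11.93 with p53 and 10.04 in the negative control, a difference of 1.89. GADD45A, whose protein interferes with CDK1 and cyclin B, stood at 10.35 with p53 and 9.61 in the negative control, a difference of 0.74, less than 2-fold. SFN, at 2.20, and RPRM, at 1.55, fall within the range of these 4.

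The genes that control entry into mitosis were mostly lower with p53. The list holds genes that promote entry and also the restraining kinase genes WEE1, PKMYT1, CHEK1 and CHEK2. Among 20 measured genes, all above the filter, the 2-fold calls were 14 lower, 1 higher and 5 neither, while 5.79% of genes above the filter were lower. Their median difference was -1.43. CDK1, the mitotic kinase, stood at 7.66 with p53 and 9.88 in the negative control, a 4.65-fold lower level. The polo-like kinase gene PLK1 was 4.31-fold lower, the centrosomal kinase gene AURKA 4.21-fold lower and the cyclin gene CCNA2 4.04-fold lower. The 1 higher gene, named after its value was seen, was WEE1, the kinase that inhibits CDK1, at 11.05 with p53 and 9.89 in the negative control. Its 3 probe sets had differences of 1.15, 1.16 and 1.35. The other restraining kinase genes, also named after their values were seen, were not higher by 2-fold. CHEK1 was 2.69-fold lower, PKMYT1 had a difference of -0.76 and CHEK2 one of 0.05. GTSE1, at -1.22, lies on the same side as most of the mitotic entry genes, whose part in its difference was not tested. In a culture measured as a whole, fewer cells in G2 and mitosis and less RNA per cell cannot be told apart.

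A CHR match was found in the windows of 9 of the 16 mitotic entry genes that have one in the table, in 10 of their 28 windows or 35.7%, beside 13.3% of all windows. A CCAAT match was found in 71.4% of those 28 windows, beside 32% of all. The CHR matches included ARPP19 and CKS2, neither of them 2-fold lower, while CCNA2 and CDC25B were lower without one. Only TTTGAA in the 250 bases before the start was counted as CHR here, so elements elsewhere or with other letters would have been missed. In 45 windows of genes of 14-3-3 binding proteins the shares were 13.3% for CHR and 31.1% for CCAAT. In 6 windows of GTSE1 partners they were 33.3% and 50%. The 2 CHR matches among these partners were in PLK1, also a mitotic entry gene, and CKAP5, which was not 2-fold lower. The 3 windows of other p53-linked G2 arrest genes held no match to either motif. The p53 half-site matched 1 of these 3 windows, that of PLK2, and 2 of the 28 mitotic entry windows, both of CDC25C. It matched 3 of the 45 windows of 14-3-3 binding protein genes and 1 of the 6 of GTSE1 partners, beside 5.57% of all windows. A gene can have several windows, and no test was made of these shares.

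Among 28 measured genes of proteins that 14-3-3 binds, 25 of them above the filter, the 2-fold calls were 2 higher, 3 lower and 23 neither. Among all genes above the filter, 8.21% were higher and 5.79% lower. With so few calls the counts are not read as a departure from those shares. Their median difference was 0.01, and 4 had identical values. The 3 lower genes were the CDC25 phosphatase genes, which are also among the mitotic entry genes. CDC25B stood at 8.28 with p53 and 10.08 in the negative control, a 3.47-fold lower level. CDC25C, the G2 checkpoint partner of the 14-3-3 proteins, stood at 6.87 with p53 and 8.49 in the negative control, a 3.07-fold lower level, with the p53 value below the filter. CDC25A stood at 7.77 with p53 and 9.17 in the negative control, a 2.63-fold lower level. KSR1, a scaffold of RAF and MAP kinase signalling, stood at 10.22 with p53 and 7.56 in the negative control, a 6.33-fold higher level. The other higher gene was WEE1. The Hippo pathway effectors YAP1 and WWTR1, named after their values were seen, had differences of 0.35 and 0.21.

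Among 5 measured regulators of 14-3-3 sigma the 2-fold calls were 2 lower and 3 neither, beside 5.79% lower among all genes above the filter, and the median difference was -0.06. TRIM25, a ubiquitin ligase that targets 14-3-3 sigma, stood at 10.61 with p53 and 10.67 in the negative control, a difference of -0.06. COP1, another ligase reported to act on it, stood at 8.96 with p53 and 8.15 in the negative control, a difference of 0.81. BRCA1, a repair gene that cooperates with p53 at the SFN promoter, stood at 6.68 with p53 and 8.71 in the negative control, a 4.09-fold lower level, with the p53 value below the filter. DNMT1, the maintenance DNA methyltransferase gene, stood at 9.94 with p53 and 11.13 in the negative control, a 2.28-fold lower level. BRCA1 and DNMT1 are also known as genes of cycling cells. Whether any of these bears on the level of SFN was not tested.

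Among 6 genes of GTSE1 partners the 2-fold calls were 3 lower and 3 neither, beside 5.79% lower among all genes above the filter, and the median difference was -0.95. PLK1, which is also counted among the mitotic entry genes, was 4.31-fold lower. KIF2C, a microtubule-depolymerising kinesin gene, stood at 7.64 with p53 and 9.47 in the negative control, a 3.57-fold lower level. TACC3, a spindle protein gene, stood at 8.18 with p53 and 9.70 in the negative control, a 2.87-fold lower level. The microtubule polymerase gene CKAP5 had a difference of -0.37.

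**Figure D3:**
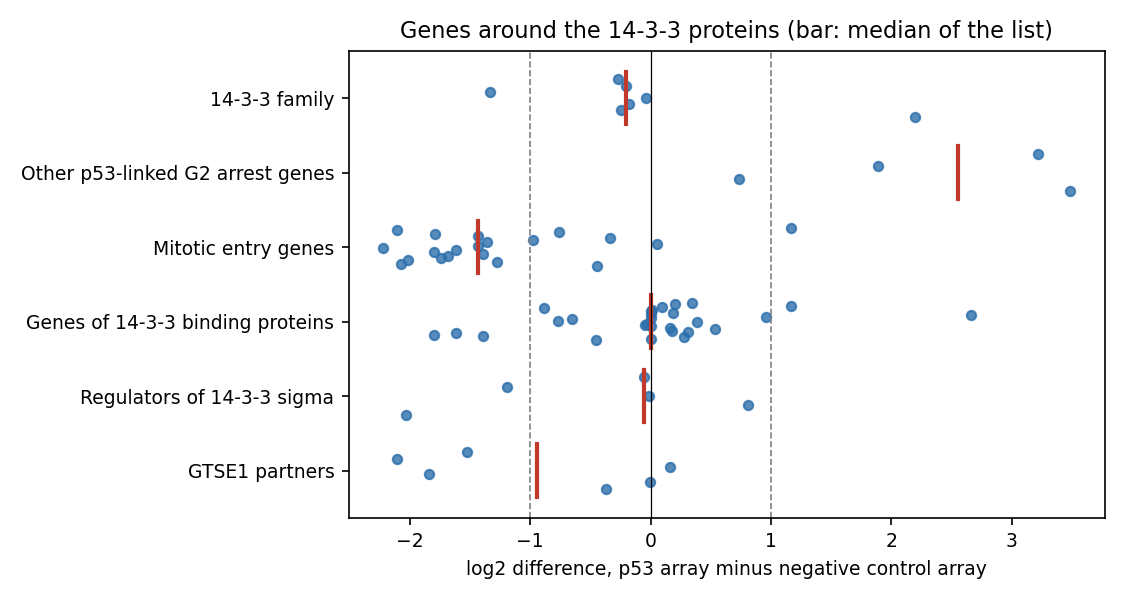
Log2 difference, p53 minus negative control, of each measured gene of 6 lists (points, spread vertically for sight) with the list median (bar); dashed lines mark 2-fold. The median is -1.43 for mitotic entry genes, 2.55 for other p53-linked G2 arrest genes and 0.01 for genes of 14-3-3 binding proteins.

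Because SFN is an epithelial gene, epithelial and squamous markers are given beside it. Among 14 measured markers the 2-fold calls were 2 higher and 12 neither, beside 8.21% higher among all genes above the filter, and 5 had identical values; the median difference was 0.00. Of the 14, 7 were above the filter, both higher ones among them. PERP, a desmosomal membrane gene and p53 target, stood at 12.35 with p53 and 10.40 in the negative control, a difference of 1.95. DSP, which encodes desmoplakin, stood at 8.94 with p53 and 7.70 in the negative control, a difference of 1.24. KRT8 had a difference of 0.32 and KRT18 of -0.31. The keratin genes KRT5 and KRT14, CDH1 and EPCAM had identical values in the 2 arrays. The summed linear intensity of the 14 markers was 19986 with p53 and 15683 in the negative control, a sum over different probes in which PERP alone stood at 5237 with p53 and 1356 in the negative control. The part of these genes in the difference of SFN was not tested.

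The differences were recomputed under 5 alternative settings that change scale, trend or probe set. SFN stayed between 2.06 and 2.32, RPRM between 1.43 and 1.67, YWHAH between -1.34 and -1.20 and GTSE1 between -1.22 and -1.10, so each kept its side of the 2-fold rule.

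**Figure D4:**
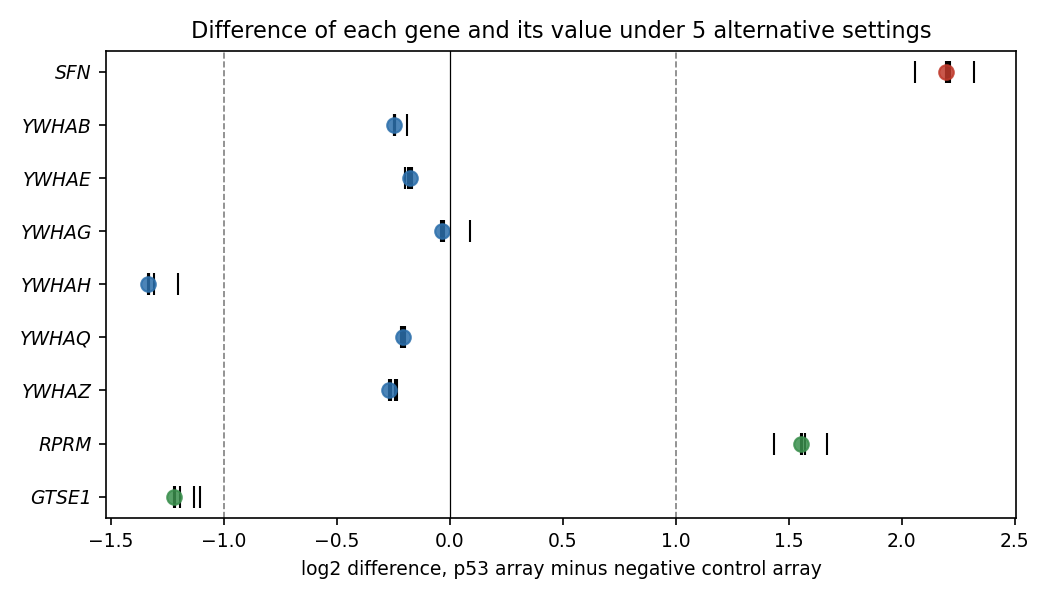
Log2 difference, p53 minus negative control, of each gene in the deposited values (points) and under 5 alternative settings (ticks); dashed lines mark 2-fold. SFN, RPRM, YWHAH and GTSE1 stay outside the lines, and YWHAG has ticks on both sides of 0.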

How the data were processed

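RNA (Trizol) was labelled with biotin and hybridised to 1 Affymetrix array per group, per the labels' protocols. The authors deposited log2 intensities, 1 per probe set and array, made with RMA per the submitters' processing notes; its software and version, and the genome build, are not stated there. That the scale is log2 follows from the range, 1.41 to 14.68. RMA equalises the arrays, so a shift of all transcripts cannot be read. The number of arrays limits the precision.

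Probe sets with 1 symbol in GEO's platform annotation (19460 of 33297; 1754 had several and 12083 none in the table used here) were named, with symbols updated through RefSeq, and the brightest per gene was used. The filter level was the median of all values, 7.38. The calling step was tested on simulated data. Genes named were the members, CDKN1A, MDM2, up to 4 genes above the filter per list by absolute difference, and the 3 nearest to SFN and to GTSE1; others are genes of the lists or neighbours chosen with values known. Members and lists were chosen with earlier results of these data known. Listed genes without a value under a single symbol are not reported here. Alternatives were other filters (none, 75th percentile) and thresholds (1.5-fold, 3-fold), median centring, a lowess trend (span 0.3) removed, the mean over probe sets, quantile normalization and an offset of 32. Python 3.11.15, numpy 2.4.6, pandas 2.3.3, statsmodels 0.14.6 and matplotlib 3.10.9 were used.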

Additional observations from a re-analysis of the deposited data

How the results depend on the processing

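With centring, the lowess trend removed, the mean over probe sets, quantile normalization or an offset of 32, all 9 members kept their side of the 2-fold rule, and the distance of SFN from the median of the YWHA genes ran from 2.28 to 2.52. The sign of YWHAG did not hold, at 0.09 with the lowess trend removed. Counts changed mainly with the threshold. At 1.5-fold, 1642 genes above the filter were higher and 1777 lower; at 3-fold, 450 were higher and 175 lower, against 939 and 662 at 2-fold. At 3-fold, 0 mitotic entry genes were higher and 9 lower, 1 gene of a 14-3-3 binding protein was higher, and 1 regulator of 14-3-3 sigma was lower. At 1.5-fold, 6 genes of 14-3-3 binding proteins were lower and 1 regulator of 14-3-3 sigma was higher. No paired analysis was possible because each group has 1 array, and no replicate could be left out. SFN and RPRM in the control and GTSE1 with p53 lay within 0.51 of the median intensity of all probe sets. The values are transcript levels and give no protein level. Leaving out genes equal in both arrays, chosen after seeing the data, changed neither background count.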
